A study of Mus musculus with 3 samples.

Results

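The retinoid receptor genes are Rxra, Rxrb and Rxrg, which encode the retinoid X receptors (RXR), and Rara, Rarb and Rarg, which encode the retinoic acid receptors (RAR). A TRα1 binding site was counted for a gene when its summit lay inside the gene body or within 30 kb of the 5′ end of the gene, in either direction. This gave 26 of the 23988 sites of the list, 8 at the RXR genes and 18 at the RAR genes, and no site was shared between 2 of the 6 genes. The sites came from ChIP-seq of the thyroid hormone receptor TRα1 in the striatum of male C57BL/6J mice. In every library the genotype was TRa1 GS-tagged, that is, a TRα1 carrying the GS epitope tag. The paper lists this data set under adult GABAergic neurons of the striatum. All mice were euthyroid and received no treatment. The mice were adult, at 8 weeks of age. The series held 2 ChIP libraries and 1 input library, and all 3 came from mice of this single condition. The driver of the tagged receptor and the number of mice per library were not given in the sources used here.

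Thyroid hormone receptors are nuclear receptors that bind DNA mainly as heterodimers with an RXR. The preferred element is DR4, in which AGGTCA occurs as a tandem pair of half-sites 4 bases apart. On it RXR takes the upstream half-site and the thyroid hormone receptor the downstream one. RXR is also the obligate partner of RAR, whose ligand is all-trans retinoic acid and whose elements are mostly DR5 and DR2, with half-sites 5 and 2 bases apart. RXR genes therefore encode the partners of TRα1 itself, and RAR genes encode receptors that use the same partners. In the striatum Rarb and Rxrg are the retinoid receptor genes best known for their expression in projection neurons.

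The processed data were 1 peak list of MACS without values for the single libraries. The 2 ChIP libraries could not be compared with each other, no test between groups was possible, and the values below describe this list. Each site is given by its fold enrichment, the ratio of ChIP coverage to the local background at the summit, and by its pileup, the number of overlapping ChIP fragments there. Over all 23988 sites the fold enrichment had a median of 7.40 (range 1.7 to 123) and the pileup a median of 21 (range 14 to 924). Intervals are 95% Wilson intervals over sites, which cover counting error only. In tissue, a low enrichment from occupancy in few cells and one from weak occupancy in many cells cannot be told apart.

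All 6 genes had at least 1 site, against 57.7% of the 21938 protein-coding genes under the same rule. Within 30 kb of the 5′ end alone, without the gene body, 4 genes had a site, all but Rxra and Rarb. The share of protein-coding genes was then 53.3%. Rxra had 1 site, Rxrg had 3, Rxrb had 4, Rara had 5, Rarg had 6 and Rarb had 7. The 3 RAR genes thus had 5 or more sites each, as did 6.57% of protein-coding genes, whereas none of the RXR genes did. Many of these sites were weak. With a MACS score of at least 200, where the list begins at 60, no gene reached 5. Rara then had 3 sites, Rarb and Rarg 2 each, Rxrb and Rxrg 1 each and Rxra 0. The number of sites depends on how much sequence is searched, and the searched intervals ran from 60 kb for Rxrb and Rarg to 418 kb for Rarb. Each gene was therefore set beside protein-coding genes of like length, whose interval was at least 0.8 times as long and at most 1/0.8 times. At least as many sites as at Rarg were found at 2.09% of 16433 such genes, and at least as many as at Rara at 3.87% of 3517. For Rxrb the share was 7.56% of 16433 genes and for Rxrg 14.3% of 17635. Rarb, with the largest count, was less unusual for its length, since 24.1% of 323 genes had at least as many sites. Rxra stood at the other end, with 72.4% of 1982 genes of like length having 1 site or more. Per 100 kb, the counts were 10 sites for Rarg, 6.67 for Rxrb, 6.48 for Rara, 4.21 for Rxrg, 1.67 for Rarb and 0.858 for Rxra.

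**Figure D1:**
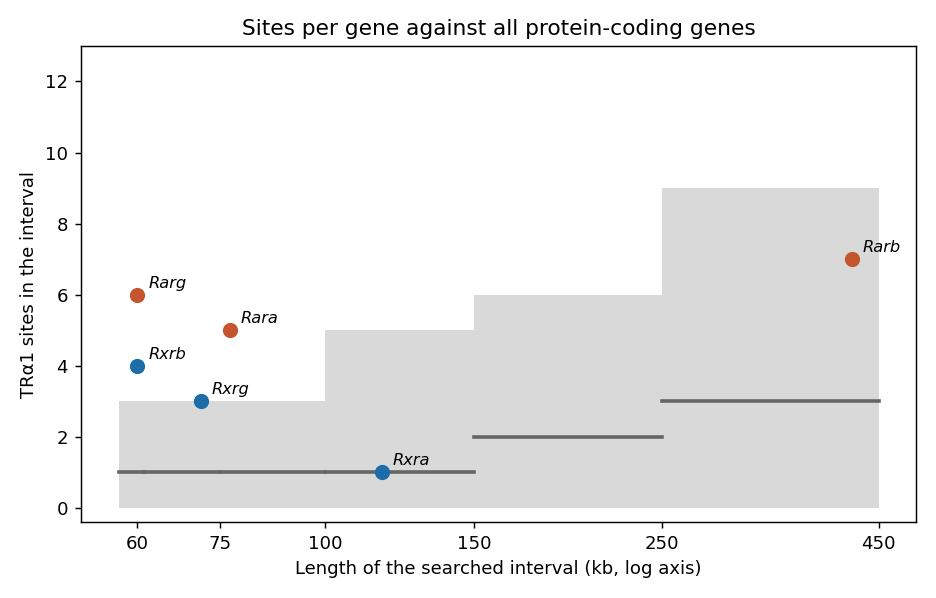
Number of TRα1 sites (y axis) against the length of the searched interval in kb (x axis, log scale) for the 6 retinoid receptor genes, RXR genes in blue and RAR genes in orange. The grey band spans the 10th to the 90th percentile and the dark line the median of all protein-coding genes in the same range of length, up to 450 kb. Rarg, Rara and Rxrb lie above the band, Rxrg lies on its upper edge, Rarb lies inside it and Rxra lies on the median of 1.

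The fold enrichment of the 26 sites had a median of 7.62 and ran from 5.20 to 40.4. The medians of the RXR sites (7.67, n = 8) and of the RAR sites (7.6, n = 18) were close to each other and to that of the whole list. The sites were unequal within most genes, with 1 strong site standing beside several weak ones. Ordered by their strongest site, the genes ran from Rxrb (40.4) over Rarb (38.9), Rara (36.1), Rarg (26.4) and Rxrg (11.5) to Rxra (6.69), and the pileup gave the same order. Whether neighbours in this order differ beyond the spread between libraries could not be examined. The strongest sites of Rxrb, Rarb, Rara and Rarg were in the top 5% of the list, which begins at a fold enrichment of 26.4, and 6.82% of protein-coding genes have such a site. The site of Rarg stood directly at this limit, at the 95 percentile. These 4 of 26 sites were 15.4% of the sites of the 6 genes (interval 6.15 to 33.5%). The share of 6.82% was not matched for length or number of sites, and a gene with more sites has more chances of a strong one. Among protein-coding genes with a site, the strongest site was weaker than that of Rxrb in 95.4% and than that of Rarb in 94.8%. For Rara this was 93.8% and for Rarg 88.2%.

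**Figure D2:**
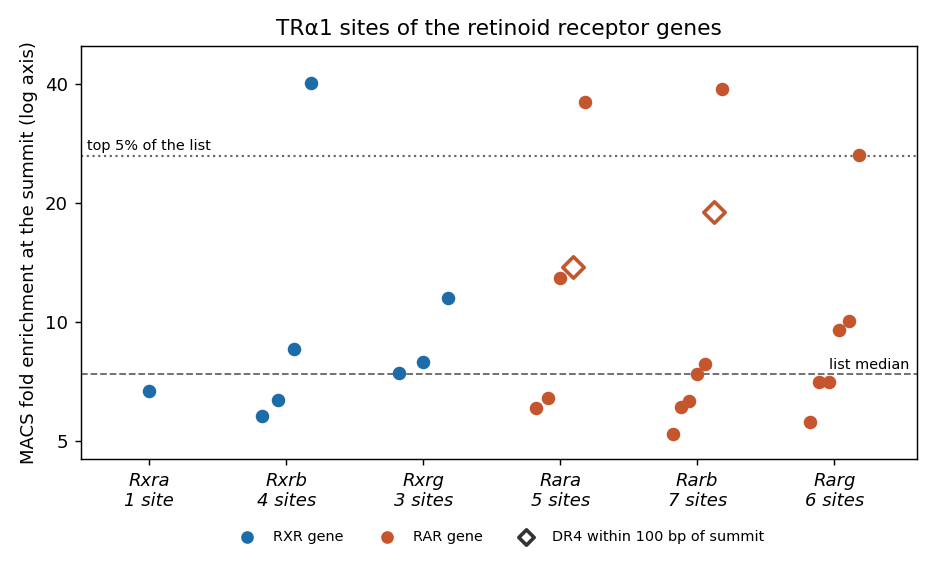
MACS fold enrichment at the summit (y axis, log scale) of each of the 26 sites, by gene, with RXR genes in blue and RAR genes in orange. Open diamonds are sites with a DR4 match within 100 bp of the summit, and the lines mark the list median of 7.40 and the start of the top 5% at 26.4. Rxrb, Rara and Rarb each have 1 site above 36, and both diamonds are sites of RAR genes below the top 5%.

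Rxra (ENSMUSG00000015846.14, chr2:27676440-27762957, plus strand) encodes RXRα. Its single site, at chr2:27740121-27740553, had a fold enrichment of 6.69 and a pileup of 17, below the medians of the list. The summit lay 63892 bp downstream of the 5′ end of the gene, in an exon of the noncoding transcript Rxra-205 and 131 bp after the start of that transcript. The 5 protein-coding transcripts start between 29749 and 63892 bp away from it, so that no site lay near a coding start of this gene.

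Rxrb (ENSMUSG00000039656.17, chr17:34031812-34038399, plus strand) encodes RXRβ and lies in a dense part of the major histocompatibility region. It had the strongest site of the 6 genes, with a fold enrichment of 40.4 (98.3 percentile) and a pileup of 216 (99.7 percentile), at chr17:34031300-34032848. At 1549 bp this was also the longest of the 26 sites, and its local background of 4.38 fragments was the highest among them. The summit fell 98 bp upstream of Rxrb and 32 bp upstream of Slc39a7, a gene for a zinc transporter that is transcribed in the opposite direction. The site therefore covered both promoters and cannot be assigned to either gene from its position. The 129 bases between the exons of both genes, which hold the summit, are printed on the plus strand of GRCm38 to show the strongest site of the RXR genes. They contain no DR4, and no letters are capitalised because no half-site was found in them.
Rxrb promoter (chr17:34031683-34031811): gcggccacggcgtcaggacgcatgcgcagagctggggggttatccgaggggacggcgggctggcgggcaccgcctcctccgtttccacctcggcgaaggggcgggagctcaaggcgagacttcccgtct

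The other 3 sites of Rxrb were weak. A site at chr17:34024049-34024292 (fold enrichment 5.77, pileup 20) lay 7600 bp upstream of Rxrb and 468 bp from the 5′ end of Ring1, which encodes a Polycomb protein. A site at chr17:34027373-34027915 (fold enrichment 6.34, pileup 17) lay 4140 bp upstream, inside a coding exon of H2-Ke6 and 388 bp from the 5′ end of that gene. This site held an exact DR1, the repeat with a spacer of 1 base to which RXR dimers are known to bind, as the sequence AGGTCAgAGGTCA at chr17:34027880-34027892 on the plus strand. It was 214 bp from the summit and thus outside the 100 bp in which elements were counted. The share of the list with a DR1 anywhere in the peak is not given here. Over whole peaks a DR1 with 2 mismatches was also found at Rarg, 217 bp from the summit of its intronic site. The last site, at chr17:34038079-34038844 (fold enrichment 8.55, pileup 22), lay beyond the 3′ end of Rxrb, 6815 bp from its 5′ end and 810 bp from the 5′ end of the collagen gene Col11a2. All 4 sites of Rxrb were thus nearer to the 5′ end of another protein-coding gene than to that of Rxrb.

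Rxrg (ENSMUSG00000015843.10, chr1:167598384-167639623, plus strand) encodes RXRγ, the RXR enriched in striatal projection neurons. A pair of sites with summits 1846 bp apart lay far upstream of it. The nearer one, at chr1:167572633-167573455, had a fold enrichment of 11.5 and a pileup of 30, and its summit was 25265 bp from the 5′ end of the gene. The farther one, at chr1:167571176-167571608 and 27111 bp upstream, had a fold enrichment of 7.44 and a pileup of 19. The remaining site, at chr1:167632170-167632466, lay in an intron 33953 bp into the gene, with a fold enrichment of 7.90 and a pileup of 22. Rxrg was the only one of the 6 genes without a site within 1 kb of an annotated transcript start of its own. Over all protein-coding genes, 27.4% had such a site near a start, so that its absence at Rxrg was the common state. The next site upstream, 37594 bp from the gene and outside the 30 kb limit, had a fold enrichment of 19.2 and so exceeded all 3 sites inside it. The 201 bases around the summit of the strongest site inside the limit, on the plus strand of GRCm38, hold no half-site and therefore no capitals.
Rxrg upstream site (chr1:167573019-167573219): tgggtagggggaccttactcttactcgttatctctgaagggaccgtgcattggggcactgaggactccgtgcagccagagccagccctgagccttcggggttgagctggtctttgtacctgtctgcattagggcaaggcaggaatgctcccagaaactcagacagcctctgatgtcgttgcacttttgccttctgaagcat

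Rara (ENSMUSG00000037992.16, chr11:98927818-98974942, plus strand) encodes RARα, the RAR with the widest expression. All 5 of its sites lay in introns, and none was within 10 kb of the 5′ end of the gene, which is the start of transcript Rara-203. The sites instead gathered around the internal starts. The site at chr11:98937752-98938610 (fold enrichment 13, pileup 36) had its summit 519 bp after the start of the protein-coding transcript Rara-201 and 91 bp before that of the noncoding transcript Rara-205. The strongest site, at chr11:98939336-98940085, had a fold enrichment of 36.1 (97.6 percentile) and a pileup of 96, with its summit 145 bp before the start of the protein-coding transcript Rara-207. The summits of these adjoining sites were 1329 bp apart. A weak site at chr11:98941373-98941723 followed (fold enrichment 6.07, pileup 17). A site at chr11:98959484-98959770 (fold enrichment 6.41, pileup 21) lay 796 bp before the start of Rara-202. Around the strongest summit, the 201 bases on the plus strand held 3 copies of a relaxed half-site, (A or G)G(G or T)TCA on either strand. These are in capitals and formed no DR1, DR2, DR4 or DR5 within the limit of 2 mismatches.
Rara internal promoter site (chr11:98939466-98939666): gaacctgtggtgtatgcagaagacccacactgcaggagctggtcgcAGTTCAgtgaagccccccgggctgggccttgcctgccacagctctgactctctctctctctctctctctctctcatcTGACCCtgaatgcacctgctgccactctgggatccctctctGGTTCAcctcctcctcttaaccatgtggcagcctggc

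The remaining site of Rara, at chr11:98949673-98950204, lay in an intron 22113 bp from the 5′ end. It had a fold enrichment of 13.8 (82.5 percentile) and a pileup of 36, and it held a DR4 25 bp from its summit. The element, GGGTTAcctgAGGTCA at chr11:98949898-98949913 on the minus strand, had an exact downstream half-site and 2 mismatches in the upstream one. The surrounding 201 bases are given on the plus strand of GRCm38 with both half-sites in capitals, read there as their complements.
Rara intronic DR4 site (chr11:98949831-98950031): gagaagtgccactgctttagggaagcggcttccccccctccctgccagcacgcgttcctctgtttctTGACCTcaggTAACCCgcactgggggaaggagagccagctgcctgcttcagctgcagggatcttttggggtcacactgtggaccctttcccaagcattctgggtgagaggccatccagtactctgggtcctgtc

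Rarb (ENSMUSG00000017491.9, chr14:16430839-16819156, minus strand) encodes RARβ, which is abundant in the striatum and whose transcription from an internal promoter is a classical target of retinoic acid. With 388 kb it is the longest of the 6 genes, and all 7 sites were inside it. No site was found within 141293 bp of its far 5′ end, where transcripts Rarb-203 and Rarb-204 start. The strongest site, at chr14:16518930-16519570, had a fold enrichment of 38.9 (98.1 percentile) and a pileup of 123. It lay in an intron 299938 bp into the gene, downstream of the internal promoter. It was unlike the strong sites of Rxrb, Rara and Rarg in that its summit was 55827 bp from the nearest annotated transcript start of the gene, and the bases around its summit had a GC content of 39.8%, against a list median of 50.7%. Its 201 summit bases on the plus strand of GRCm38 are shown because they hold no half-site, even a relaxed one.
Rarb strongest intronic site (chr14:16519118-16519318): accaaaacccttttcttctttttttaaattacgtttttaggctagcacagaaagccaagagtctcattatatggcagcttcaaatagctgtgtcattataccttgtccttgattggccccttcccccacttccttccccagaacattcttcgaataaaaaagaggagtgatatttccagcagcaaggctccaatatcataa

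The next site by enrichment, at chr14:16677641-16678166, had a fold enrichment of 19.0 (90.1 percentile) and a pileup of 50. It was the site nearest to the far 5′ end of Rarb and held a DR4 28 bp from its summit. The element, AGGGCAgacgAGGTCA at chr14:16677883-16677898 on the minus strand, had 1 mismatch, in the upstream half-site, and was the closest match to DR4 near any of the 26 summits. It is printed below in capitals within the 201 plus-strand bases around the summit.
Rarb intronic DR4 site (chr14:16677763-16677963): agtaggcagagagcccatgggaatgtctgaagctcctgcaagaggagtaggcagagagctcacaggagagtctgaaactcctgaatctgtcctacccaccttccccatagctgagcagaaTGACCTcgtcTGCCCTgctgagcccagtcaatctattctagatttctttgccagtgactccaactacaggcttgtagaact

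The other 5 sites of Rarb had fold enrichments from 5.20 to 7.81 and pileups from 15 to 20. The lowest fold enrichment of all 26 sites was that of the site at the internal promoter of Rarb, at chr14:16575056-16575286. The fold enrichment was 5.20 (4.75 percentile) and the pileup 15, and the summit lay in an untranslated exon 342 bp after the start of the protein-coding transcript Rarb-201. This promoter is known for a DR5 through which retinoic acid raises Rarb transcription. A DR5 of relaxed half-sites, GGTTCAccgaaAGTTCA, was found at chr14:16575513-16575529 on the minus strand, 37 bases before a RefSeq start at chr14:16575476. The element lay after the GENCODE start of Rarb-201, which is at chr14:16575543. It was outside the TRα1 site, 227 bp from its edge and 320 bp from its summit. Among 13 RefSeq promoter windows of 300 bp at the 6 genes this was the only one with such an element, and 0.0974% of 32851 windows in the mouse genome hold one. The promoter search was added after the sites had been seen.

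Rarg (ENSMUSG00000001288.15, chr15:102234938-102257517, minus strand) encodes RARγ, known mainly from skin and skeletal tissues. It had the highest density of sites among the 6 genes. The strongest, at chr15:102262502-102263005 and 5270 bp upstream of the gene, had a fold enrichment of 26.4 and a pileup of 70. Its 201 summit bases are printed on the plus strand, with the 1 exact half-site in capitals as its complement, and they hold no DR4.
Rarg upstream site (chr15:102262687-102262887): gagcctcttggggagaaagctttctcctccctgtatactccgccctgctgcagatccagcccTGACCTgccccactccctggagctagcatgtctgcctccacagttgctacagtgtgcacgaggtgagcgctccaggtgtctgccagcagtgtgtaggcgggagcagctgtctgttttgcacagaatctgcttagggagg

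The other 5 sites of Rarg were between 5.58 and 10 in fold enrichment. A pair of weak sites flanked the 5′ end, at chr15:102257513-102257781 with the summit 80 bp upstream (fold enrichment 7.07, pileup 18) and at chr15:102256331-102256596 with the summit 1016 bp downstream in an untranslated exon (fold enrichment 5.58, pileup 14). The first of this pair had the highest GC content of the 26 sites, 76.1%. A site at chr15:102243423-102244062 (fold enrichment 10, pileup 26) lay in an intron, 59 bp before the start of transcript Rarg-204. The remaining sites were upstream. The site at chr15:102273383-102273856 (fold enrichment 9.57, pileup 29) lay 16048 bp from Rarg in an exon of the neighbouring gene Gm9918. The site at chr15:102279168-102279557 (fold enrichment 7.07, pileup 18) lay 21846 bp from Rarg but 91 bp upstream of Mfsd5, a gene for a membrane transporter. A further site with its summit 30185 bp upstream (fold enrichment 6.13) missed the limit by 185 bp.

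**Figure D3:**
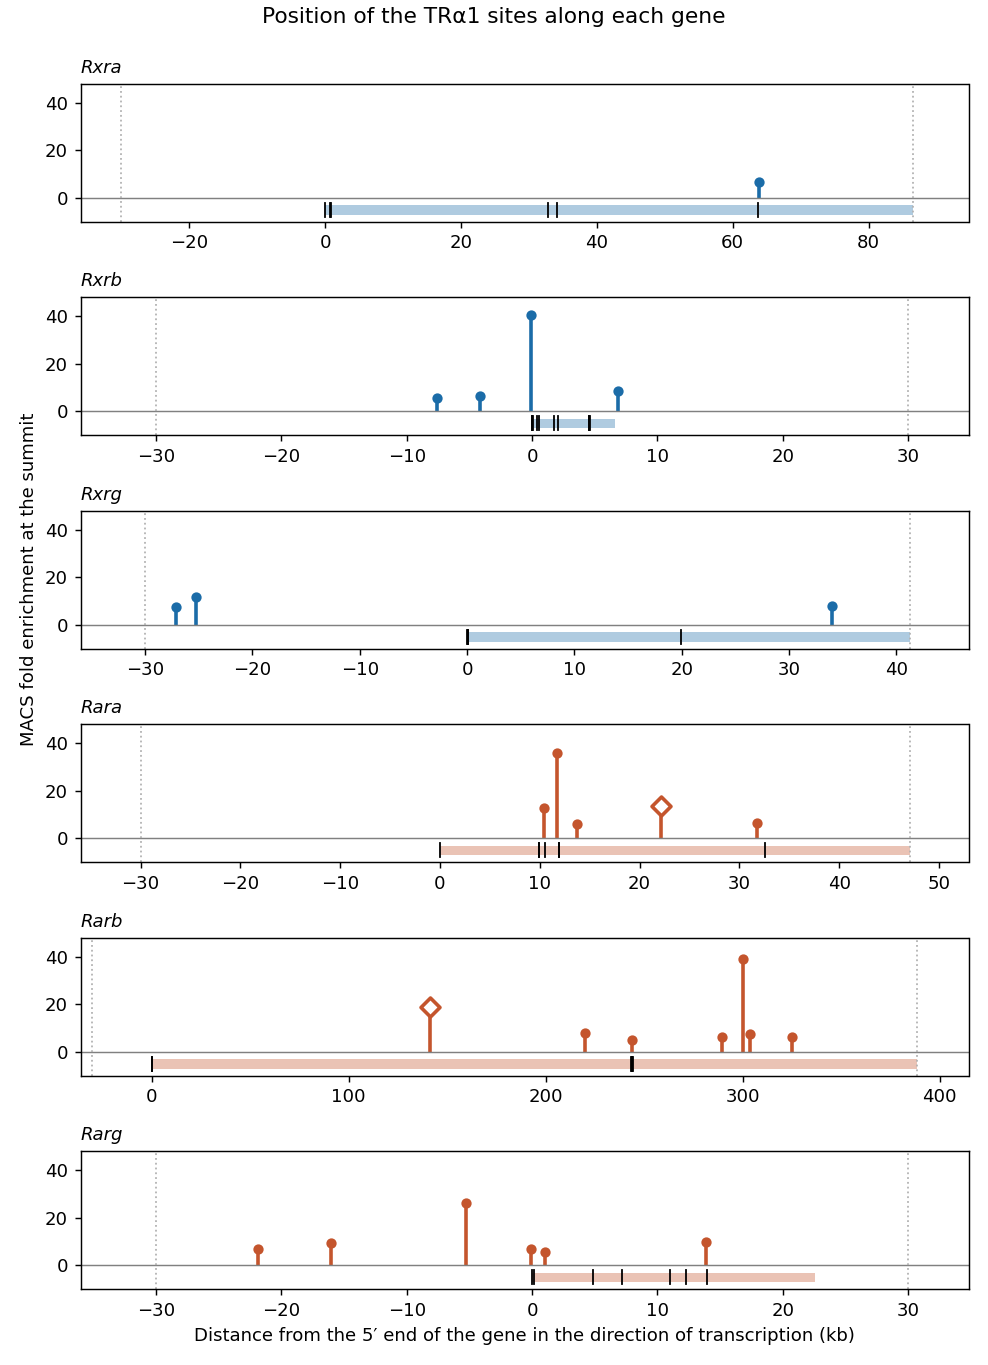
Position of the summits (x axis, kb from the 5′ end of the gene in the direction of transcription, with a scale of its own for each gene) and their MACS fold enrichment (y axis). The pale bar is the gene body, black ticks are annotated transcript starts, dotted lines bound the searched interval and open diamonds are sites with a DR4 match within 100 bp of the summit. The strongest sites of Rxrb and Rara stand at a transcript start, while the strongest site of Rarb, with a fold enrichment of 38.9, stands far from any.

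Across the 6 genes, 16 of 26 sites were inside the gene body. Of these, 13 were in introns, 2 in untranslated exons and 1 in an exon of a noncoding transcript, and 0 were in a coding exon of the gene itself. Another 9 sites were upstream and 1 was downstream of the gene. The RAR genes held most of the sites inside the gene body (14 of 18), whereas 2 of 8 RXR sites were inside and 5 were upstream. The genes differ in length, and Rarb (388 kb) alone held 7 of the 14 RAR sites inside a gene body. Rarg had 2 of its 6 sites inside, and Rxrb, with a gene body of 6.59 kb, had 0 of 4. Only 2 of 26 summits were within 1 kb of the 5′ end of the gene itself, but 9 were within 1 kb of some annotated transcript start of it. In this count 5 of the 6 genes were represented, Rxra only through the start of its noncoding transcript Rxra-205. Over all protein-coding genes, 27.4% had a site within 1 kb of a start of their own. That share was not matched for length, number of sites or number of annotated starts, and a gene with more of these has more chances. The count of 9 became 6 with the basic set of GENCODE transcripts and 8 with protein-coding transcripts only. The share of all protein-coding genes is not given for these sets. Within 1 kb of a start of any protein-coding gene there were 13 summits, 50.0% of the sites (interval 32.1 to 67.9%), against 27.2% of all sites of the list. The rule selected sites near genes, so this difference is partly fixed by the choice.

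Assignment to another gene was also possible for many sites. The nearest protein-coding 5′ end was that of another gene for 13 of 26 sites, 4 at the RXR genes and 9 at the RAR genes. Over all protein-coding genes this held for 46.2% of 30843 pairs of a gene and a site. The 4 RXR cases were all those of Rxrb. At Rarb 5 sites were nearer to the 5′ end of the topoisomerase gene Top2b than to the far 5′ end of Rarb, although they were inside Rarb. The other 4 RAR cases were the site of Rara before Rara-202, nearest to the gap junction gene Gjd3, and the Rarg sites nearest to Gm9918, Mfsd5 and the integrin gene Itgb7. When every annotated transcript start was used in place of 1 start per gene, 7 sites were nearer to another gene, an alternative chosen after seeing the data. When the 5′ ends of all annotated genes were used in place of protein-coding genes, the count was 19 of 26.

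A DR4 with at most 2 mismatches in its 12 half-site bases was found within 100 bp of the summit at 2 of 26 sites, 7.69% (interval 2.14 to 24.1%). The share over the whole list was 13.1%, inside this interval. Both sites belonged to RAR genes, Rara and Rarb, and 14.1% of protein-coding genes had such a site. At the RXR genes it was 0 of 8 sites, for which the interval reached 32.4%, so that a share like that of the list was not distinguishable at this number of sites. In both elements the downstream half-site was the exact AGGTCA and the mismatches were in the upstream half-site. None of the 4 sites in the top 5% had a DR4, and the sites with one ranked second in Rara and in Rarb. Over the whole length of the peaks 5 of 26 sites held a DR4, the additional ones being 195 bp from the summit at Rxrg, 199 bp at Rarb, and 162 and 172 bp at Rarg, where a pair of elements overlapped. Elements with their positions and strands, each half-site in capitals, were as follows.
Rxrg DR4 (chr1:167571460-167571475, minus strand): AGCTCAgaacAGGTGA
Rarb DR4 (chr14:16514994-16515009, minus strand): AGGTCAgctcAGGTAT
Rarg DR4 a (chr15:102279183-102279198, plus strand): AGCTCAatttAGGGCA
Rarg DR4 b (chr15:102279193-102279208, plus strand): AGGGCAgcggAGTTCA

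**Figure D4:**
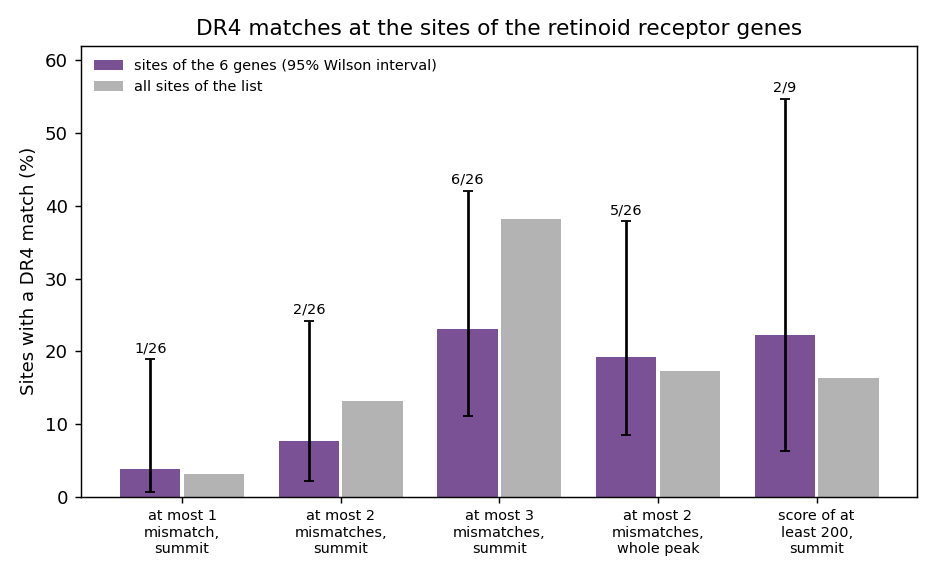
Percentage of sites with a DR4 match (y axis, starting at 0) at the 26 sites of the retinoid receptor genes (purple, with 95% Wilson intervals and the counts above) and in the whole list (grey), under 5 search rules (x axis). Under each rule the share of the whole list lies inside the interval of the 6 genes, as for 2 of 26 sites against 13.1% within 100 bp of the summit.

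The elements typical of RAR and RXR dimers were found at few of the 26 sites, as they were at few sites of the list. A DR5 was found within 100 bp of the summit at 1 site, against 3.23% of the list, and it belonged to Rarb (chr14:16514808-16515385, fold enrichment 7.39). The element was ATGTCAggagaATGTCA at chr14:16515262-16515278 on the plus strand, 69 bp from the summit. A DR2 was found at 1 site, the site of Rarg in Gm9918, as AGGTAActGGGTCA at chr15:102273567-102273580 on the minus strand and 9 bp from the summit, against 2.20% of the list. A DR1 was found at 0 of 26 sites within this window, against 2.58% of the list. With 26 sites these counts were too small to tell them from the shares of the list. Over whole peaks a DR5 with 2 mismatches was also found at another site of Rarb, 152 bp from its summit. The share of the list with a DR5 anywhere in the peak is not given here.

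The genes that surround the receptors in retinoid signalling were examined with the same rule. Among 9 genes for retinoid transport and binding, 5 had a site. The strongest were at Stra6l, a relative of the retinol transporter gene Stra6 (fold enrichment 42, chr4:45874226-45875150), at Fabp5, which encodes a protein that carries retinoic acid to the nucleus (18.4, chr3:10011942-10012563), and at Stra6 (13.4, chr9:58115669-58116574). Stra6 had a DR4 at another of its sites, not at this strongest one. Rbp2, Rbp4, Crabp1 and Crabp2 had no site. Of 12 genes for retinoic acid synthesis and retinoid storage, 4 had a site and 8 had none, and the retinaldehyde dehydrogenase genes Aldh1a1, Aldh1a2 and Aldh1a3 were among the latter. The site of Dhrs3, whose product reduces retinaldehyde back to retinol, was the strongest of this list (14.5, chr4:144891756-144892783, 718 bp upstream of the gene) and carried a DR4. It was followed by Dhrs9 (6.45) and Rdh11 (6.32), which encode retinol dehydrogenases. All 3 Cyp26 genes, whose enzymes degrade retinoic acid, had a site, at a fold enrichment of 16.4 for Cyp26b1 and 11.7 for a single site that Cyp26a1 and Cyp26c1 share. In these lists together 12 of 24 genes had a site, a share close to the 57.7% of all protein-coding genes.

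Other nuclear receptors that pair with RXR were examined as the receptors most like RAR. Of 13 such genes 9 (69.2%) had a site, with 43 sites in all, against 57.7% of all protein-coding genes. A site in the top 5% of the list was found at 3 of the 13 genes, against 6.82% of all protein-coding genes. This share was not matched for length or number of sites. The strongest was at Ppard, encoding PPARδ, with a fold enrichment of 92.0 (chr17:28225868-28226807), followed by the thyroid hormone receptor genes Thrb (38.3, chr14:17632865-17633436) and Thra (37.7, chr11:98764137-98764783). The values of the strongest RXR and RAR sites, 40.4 and 38.9, were thus close to those at the thyroid hormone receptor genes and well below that at Ppard. These partner sites lay 6417 bp upstream of Ppard, 27143 bp upstream of Thrb and 23737 bp downstream of the 5′ end of Thra. Whether another gene was nearer to them is not given here. DR4 sites were found at Thrb, Vdr, Ppara and Ppard, and only at Vdr was the strongest site of the gene among them. The liver X receptor genes Nr1h2 and Nr1h3, the bile acid receptor gene Nr1h4 and the orphan receptor gene Nr4a2 had no site.

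Of 10 marker genes of GABAergic and striatal neurons 9 had a site, all but Adora2a. Their strongest sites ran from a fold enrichment of 5.95 to 42.4, the latter at Ppp1r1b, which encodes DARPP-32. Over all protein-coding genes 57.7% had a site. Of 10 glial and endothelial marker genes 4 had a site, namely Mbp (32.7), Mog (19.1), Cx3cr1 (7.47) and Aif1 (7.15). These counts describe occupancy and not expression, so they are no check of the labelled cell type. The part of other cells in the sites of the retinoid receptor genes was not tested. The local background was within 0.05 fragments of its floor of 1.69 at 14 of the 26 sites and at 50.1% of the list, so that at these sites the fold enrichment follows the pileup directly.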

How the data were processed

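TRα1 ChIP-seq of mouse striatum comprised 2 ChIP libraries and 1 input library, grouped by their titles. Disuccinimidyl glutarate followed by formaldehyde served as crosslinkers. The processing notes of the submitters name mm10, Bowtie2 2.3.2.2 and MACS2 2.1.1.20160309.0. The authors removed peaks with a score below 60. Pooling of the ChIP libraries and treatment of duplicates were not given in the sources used here. The deposited pileup is the ChIP fragment coverage at the summit, and the deposited fold enrichment is the ratio of pileup to local background after adding 1 to both. MACS also supplied the score, which is 10 times −log10 q, and the deposited −log10 values of p and q. Library depths were not analysed here.

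Sites were assigned by their summit with GENCODE vM21 genes of GRCm38, mitochondrial genes excluded. Dividing the pileup plus 1 by the fold enrichment and subtracting 1 gave the local background. Direct repeats of AGGTCA were searched on both strands of the GRCm38 RefSeq sequence with at most 2 mismatches in 12 half-site bases within 100 bp of the summit. Genes of like length had an interval 0.8 to 1.25 times as long. Wilson intervals are at 95%. The 6 genes, the lists and the searches were chosen with earlier results of these data known, and the relaxed half-sites and other motifs after seeing the sites. Named were, for each gene, its sites (for Rarb the strongest, that nearest a start and those with DR4 or DR5), the genes whose 5′ ends were nearest to them, and in each list the 3 genes with the highest fold enrichment, up to 3 with DR4 and, where 5 or fewer, those without a site. A result that this rule names is not reported here. Aldh1a1 to Aldh1a3 were named in addition, after their values were seen. Alternatives were other distances, scores, overlaps, annotations and mismatch limits. Python 3.11.15 was used with pysam 0.24.0, scipy 1.17.1, matplotlib 3.10.9, pandas 2.3.3 and numpy 2.4.6, and the computations were tested on simulated data.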

Additional observations from a re-analysis of the deposited data

How the results depend on the processing

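Of 24 alternative values, 19 stayed within 1.5 times the reported count or inside its interval. For the DR4 share that interval was wide (2.14 to 24.1%), so that staying inside it is a weak criterion. The changes from 6 to 4 genes with a site and from 9 to 6 sites near a start lay at the limit of 1.5 times. The number of sites fell from 26 to 16 when sites outside the gene body were left out, with 0 left at Rxrb, and to 9 at a score of at least 200, with 0 left at Rxra. With that score the median fold enrichment of the sites was 19.0, against 14.5 for the list so restricted, and 7 of the 24 genes of the retinoid transport, synthesis and breakdown lists had a site, against 30.6% of protein-coding genes. Counted to every transcript start of protein-coding genes, 7 sites in place of 13 were nearer to another gene, an alternative chosen after seeing the data, whereas with the 5′ ends of all annotated genes it was 19. These alternatives keep fewer sites or compare other starts by their construction. Library depth was not analysed here. The number of sites was 22 within 10 kb and 29 within 50 kb of the 5′ end. The DR4 share was 3.85% with at most 1 mismatch (list 3.11%), 23.1% with at most 3 (list 38.2%), 19.2% over the whole peak (list 17.3%) and 22.2% of 9 sites at the higher score (list 16.3%). No paired analysis was possible because the list holds no values for single libraries, and for the same reason no replicate could be left out.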

Other observations

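Short sequences of other factors were searched without mismatches on both strands within 100 bp of the summits, a search chosen after the sites had been seen. The letters GGGCGG, known from SP1, were present at 9 of 26 sites, against 18.2% of the list. The GC content around the summits had a median of 57.7% for the 26 sites, against 50.7% for the list, and 13 of the 26 summits were within 1 kb of a start of a protein-coding gene. The AP-1 letters TGANTCA were present at 1 of 26 sites, the weak site of Rxrb near Ring1, against 11.5% of the list. The exact half-site AGGTCA was present at 3 of 26 sites, against 17.8% of the list. A relaxed half-site, (A or G)G(G or T)TCA, was present at 8 of 26 sites, against 44.5% of the list. The CRE letters TGACGTCA, the ETS letters CCGGAAGT, and the EGR1 and NRF1 sequences were present at 0 of 26 sites, against 0.542%, 0.934%, 0.379% and 0.225% of the list. No test was made of these differences.

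At 50 kb in place of 30 kb, the sites added were at Rxrg and Rarg, which then had 4 and 8 sites. The nearest site upstream of Rara outside the limit, at 63609 bp from its 5′ end, had a fold enrichment of 37.2, similar to the strongest site inside Rara (36.1).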
